A study of Mus musculus with 12 samples.

Results

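Glutathione transferases, glutathione peroxidases and the genes that make, recycle and break down glutathione were followed across 12 libraries of mouse bone marrow-derived macrophages (BMDMs). The members were the genes whose symbol begins with Gsta, Gstk, Gstm, Gsto, Gstp, Gsts, Gstt, Gstz, Mgst, Gpx, Ggt, Chac or Glrx, together with Gss, Gsr, Ggct, Oplah, Lap3, Anpep, Esd, Hagh and Glo1. Pseudogenes and Chac1 were set aside, and a member needed at least 10 counts over the 12 libraries. Of 48795 genes listed in the count tables, 56 were candidates and 44 were members. The candidates set aside were 3 pseudogenes, Chac1 and 8 genes under the limit of counts, which were Gpx2, Gpx5, Gpx6, Gpx8, Gstp2, Gstp3, Gstt4 and Ggt6. The members nearest the limit were Gstm3 with 11 counts and Gstm6 with 12, and the nearest genes outside it were Gpx8 and Gstt4 with 3 counts each. Ggta1, which encodes a galactosyltransferase that builds the alpha-Gal sugar, entered through its letters only and is given as such.

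The study asked whether the itaconate that macrophages make themselves and itaconate supplied from outside act alike on the response to particulate matter (PM). Itaconate is formed inside mitochondria by the product of Acod1, and 4-octyl itaconate (OI) is an ester of itaconate that enters cells. The 6 groups, each of 2 libraries, were WT and Acod1-/- BMDMs of the labelled strain C57BL/6 that had received vehicle, PM, or OI followed by PM. The study's methods name the substrain C57BL/6NJ. PM was an urban dust standard given at 20 μg per cm2 for 24 hours, and OI was given at 0.25 mM from 2 hours before PM. No group received OI alone, so the effect of OI was measured only in cells that also had PM. The cells were grown from bone marrow with M-CSF, the deletion was that of Acod1-/- mice and needed no Cre, and the labels do not say whether the 2 libraries of a group came from separate mice or cultures. P-values therefore measure the spread between these libraries, which may be technical.

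Total counts ranged from 33616577 to 36817898 per library. All 7 macrophage marker genes (Adgre1, Csf1r, Cd68, Itgam, Mertk, Fcgr1 and Lyz2) were measured, and their summed level was between 13998 and 26966 counts per 1000000 (CPM). The summed level of 6 neutrophil genes was between 0.101 and 4.69 CPM, and the other marker lists (dendritic, mast, B, T or NK, erythroid and stromal cells) each stayed at or below 2.57 CPM. Single markers moved with the groups. Lyz2, which made up most of the macrophage sum, was between 17692 and 21225 CPM with PM and between 9084 and 11882 CPM in the other groups. Fcgr1 was between 105 and 122 CPM with PM and between 26.6 and 28.3 CPM with OI and PM, and Mertk between 64.9 and 87.4 and between 25.9 and 41.5 CPM. Adgre1 was higher in each Acod1-/- library than in both WT libraries of the same treatment. The neutrophil sum was between 1.89 and 4.69 CPM with PM and between 0.101 and 1.38 CPM with OI and PM, and the part of these shifts in the results was not tested. Acod1 itself was not at 0 in the libraries labelled Acod1-/-: it had 108 and 94.1 CPM there with PM, against 181 and 170 CPM in WT with PM, so gene counts did not check the deletion. The 2 libraries of WT with OI and PM differed most within a group, with a chi-square per degree of freedom of 58.5 over genes, followed by WT with PM at 27.3, while the other groups lay between 2.61 and 8.32. In both of those WT groups the difference between libraries followed gene length (Spearman's rho of -0.60 and -0.62 over 11214 genes). Shorter genes were higher in the library numbered 2, where the median tested member was higher by 0.18 (PM) and 0.33 (OI and PM) on the log2 scale. The same rho was -0.28 in WT with vehicle, and 0.08, 0.36 and -0.29 in Acod1-/- cells with vehicle, PM, and OI and PM. The tested members had a median exonic length of 3232 bases, against 4478 over those genes.

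Glutathione is a tripeptide thiol that cells use to absorb oxidants and electrophiles. Transferases attach it to electrophilic compounds, peroxidases spend it to reduce peroxides, glutathione reductase regenerates it, and ectoenzymes of the gamma-glutamyl cycle dismantle it outside the cell so that its amino acids can be reused. Many of these genes are textbook targets of NRF2, a transcription factor that binds the antioxidant response element, and macrophages draw on them during phagocytosis and the oxidative burst.

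The core of that element was searched as the letters TGACNNNGC on both strands of the promoter windows of RefSeq (GRCm38.p6, 250 bases before to 50 after each annotated start). Of the 44 members, 39 had a window and 7 of these held a match in at least 1 window (17.9%), against 14% of the 27025 genes of the table and 12.4% of its 32851 windows. Among the 15 tested members that were higher with PM in WT cells, 12 had a window and 3 held a match, and among the 19 other tested members 17 had a window and 2 held one. The 3 windows with a match are shown with that of Gss, another member that was higher with PM in WT cells, whose window held none. Capitals mark the match, and positions count the annotated start as 1, so the match begins at -121 in Gsta3, at -56 in Mgst1 (read on the opposite strand) and at 21 in Hagh.
Gsta3, chr1:21240335-21240634, plus strand: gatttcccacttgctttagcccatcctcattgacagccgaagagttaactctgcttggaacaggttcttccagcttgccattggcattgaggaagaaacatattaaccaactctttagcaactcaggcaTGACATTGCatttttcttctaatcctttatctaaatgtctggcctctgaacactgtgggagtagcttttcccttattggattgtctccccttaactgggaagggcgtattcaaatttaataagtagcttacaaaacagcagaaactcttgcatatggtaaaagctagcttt
Mgst1, chr6:138140277-138140576, plus strand: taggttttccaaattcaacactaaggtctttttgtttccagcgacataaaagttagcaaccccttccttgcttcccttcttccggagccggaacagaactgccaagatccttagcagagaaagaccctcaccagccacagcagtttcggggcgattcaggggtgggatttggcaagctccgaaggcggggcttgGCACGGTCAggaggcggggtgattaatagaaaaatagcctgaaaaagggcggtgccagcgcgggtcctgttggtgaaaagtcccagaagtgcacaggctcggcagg
Hagh, chr17:24850417-24850716, plus strand: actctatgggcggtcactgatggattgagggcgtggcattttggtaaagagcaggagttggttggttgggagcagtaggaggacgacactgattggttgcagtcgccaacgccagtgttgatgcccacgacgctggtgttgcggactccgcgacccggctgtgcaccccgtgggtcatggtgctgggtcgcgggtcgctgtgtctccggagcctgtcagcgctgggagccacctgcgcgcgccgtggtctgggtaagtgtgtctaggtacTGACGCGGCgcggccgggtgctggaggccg
Gss, chr2:155592761-155593060, minus strand: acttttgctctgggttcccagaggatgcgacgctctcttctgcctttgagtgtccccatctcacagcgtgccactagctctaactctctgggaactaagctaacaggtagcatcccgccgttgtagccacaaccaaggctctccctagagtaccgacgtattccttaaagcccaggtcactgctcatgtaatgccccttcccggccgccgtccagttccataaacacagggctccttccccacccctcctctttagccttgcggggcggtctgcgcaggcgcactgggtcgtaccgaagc
A match is a description of letters in these windows, and no binding was measured. No window was matched by symbol for Ggt5, Gsr, Gsta4, Gstt2 and Oplah.

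Of the 44 members, 34 reached more than 1.5 CPM in at least 2 libraries and were tested among 11228 genes. The others, at low counts, were Gpx7, Gsta1, Gsta2, Gstm3, Gstm6, Gstm7, Gsto2, Gstt1, Ggt1 and Ggt7. Of the 34, Gsta4 passed this filter only through the WT libraries with OI and PM, and Ggt5 only through libraries with PM or with OI and PM, so both were tested because of the groups in which they are high. Among the 32 members above 1.5 CPM in all 12 libraries, 14 and 15 passed with PM in WT and Acod1-/- cells and 18 and 17 with OI, by the test given next. Of all 11228 genes, 2782 and 2684 passed with PM and 4926 and 3881 with OI. Refitted with only the genes above 1.5 CPM in all 12 libraries, 14 and 15 of these members passed with PM and 17 in each genotype with OI. The share of all genes in that refit is not given here. Differences are given as log2 fold changes ± the standard error, with adjusted p-values over all 11228 genes tested by edgeR's quasi-likelihood test, and a member passed at an adjusted p of 0.05 or less. As a share of all counts, the 44 members took between 0.335% and 0.361% in the 4 vehicle libraries, between 0.452% and 0.510% with PM, and between 0.544% and 0.637% with OI and PM. These ranges did not overlap, but the sum is weighted towards abundant members. Esd, the member with the most reads, had 22964, 44880 and 77442 reads in the second WT libraries with vehicle, PM, and OI and PM. Gpx1 had 31933, 39700 and 17033 there. The share therefore does not show that the 44 members moved together. In bulk RNA, fewer cells with a transcript and less transcript per cell cannot be told apart. Per kb of exon, the highest mean levels over the 12 libraries were those of Gpx1 (559 CPM per kb), Esd (354), Gstm1 (210.8), Anpep (189), Mgst1 (126) and Gsr (109), each the highest of its role group.

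With PM, 15 of the 34 tested members rose in WT cells and 1 fell, where 12.6% of all genes tested rose and 12.2% fell. In Acod1-/- cells 14 rose and 2 fell, where 12% of all genes rose and 11.9% fell. At least 2-fold rises numbered 9 in WT and 8 in Acod1-/- cells (3.02% and 3.19% of all genes), and no member fell that far (1.13% and 1.31% of all genes did). The median log2 difference of the tested members was 0.36 in WT and 0.31 in Acod1-/- cells, beside 0.01 and -0.00 over all genes tested. When OI preceded PM, 15 members rose and 5 fell in WT cells, where 21.3% of all genes rose and 22.6% fell relative to PM alone. In Acod1-/- cells 15 rose and 4 fell, where 13.9% of all genes rose and 20.6% fell. Here 6 members rose at least 2-fold in each genotype (2.3% and 1.85% of all genes), and 3 in WT and 2 in Acod1-/- cells fell at least 2-fold (8.49% and 7.98%). Without Gsta4 and Ggt5, a count chosen after seeing the data, the members that rose at least 2-fold were 7 with PM and 4 with OI in each genotype. With OI, the medians of all 34 tested members were 0.33 in WT and 0.19 in Acod1-/- cells, beside 0.02 and -0.00 over all genes tested. The comparison of PM with vehicle and that of OI and PM with PM share the PM libraries, so the values of each are given side by side and were not related to each other.

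**Figure D1:**
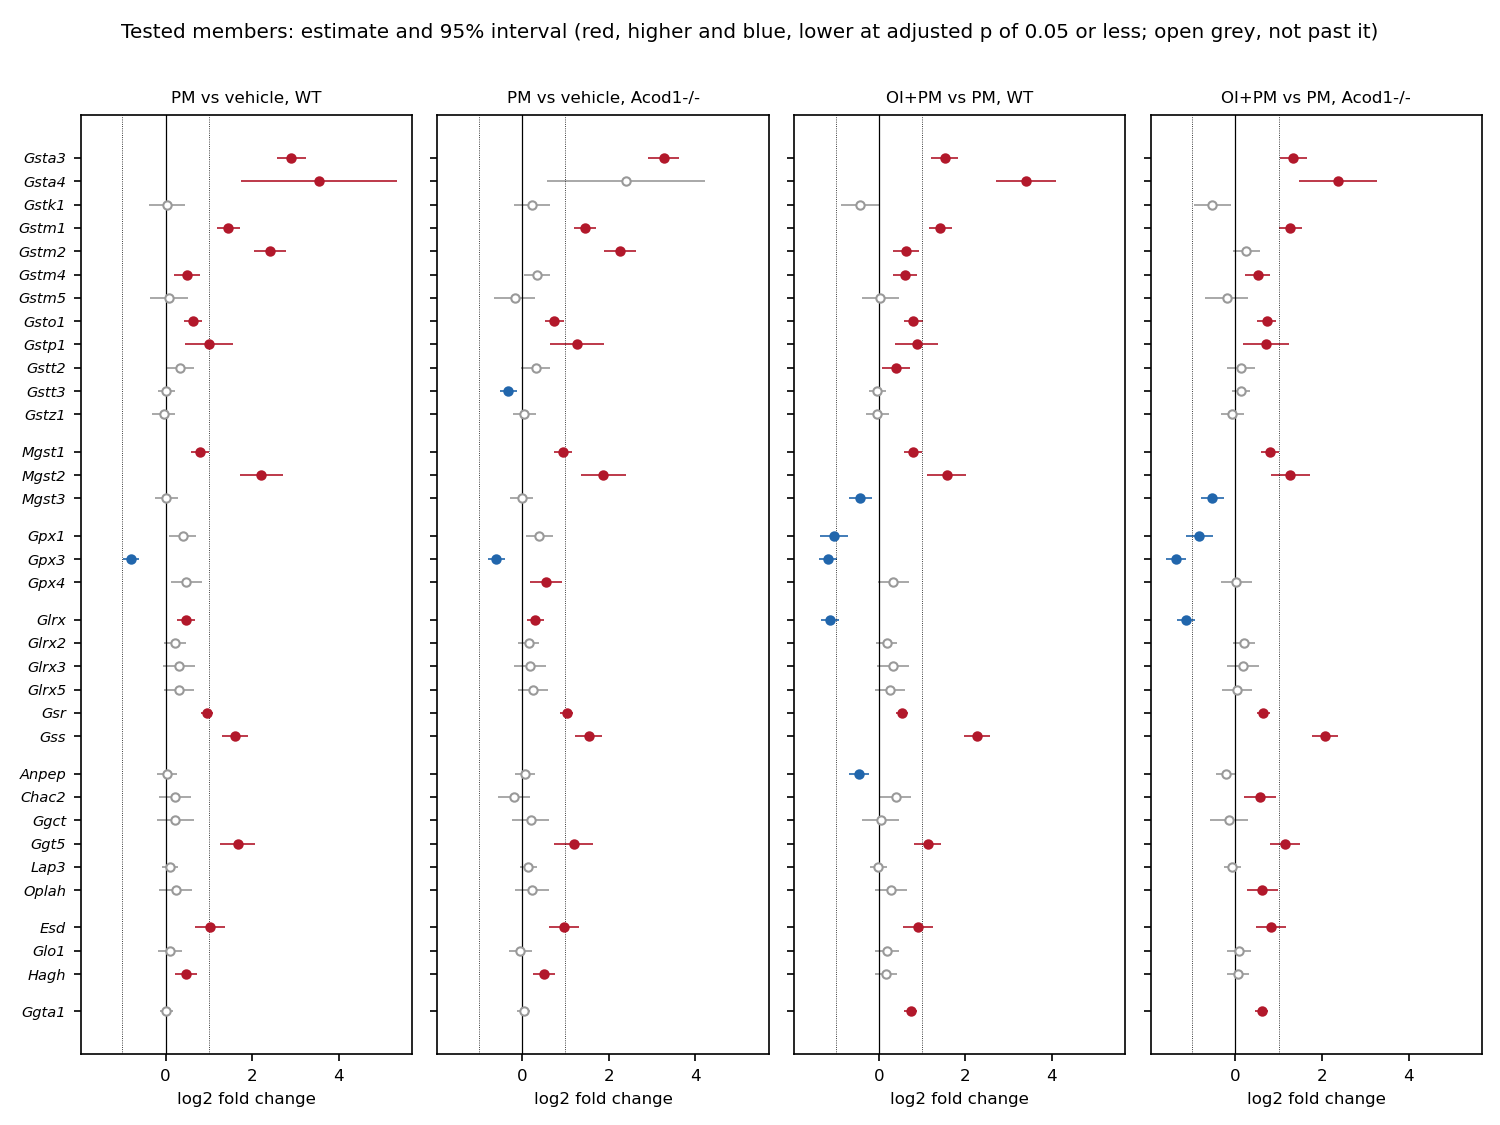
Log2 fold change (x axis) of the 34 tested members (y axis, by role) in the 4 treatment comparisons, with 95% intervals. Most filled points lie to the right of 0, and those to the left are Gpx3 and, with OI, Gpx1, Glrx and Mgst3 in both genotypes, with Anpep in WT and, with PM, Gstt3 in Acod1-/- cells.

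Among the cytosolic transferases, 19 members with 12 tested, the alpha-class gene Gsta3 changed most steeply at a well measured level. WT cells had 10.7 and 9.44 CPM of Gsta3 with vehicle, 71.0 and 80.7 with PM, and 185 and 250 with OI and PM. Acod1-/- cells had 7.90 and 8.33 CPM, then 84.0 and 72.8, then 187 and 207.2. The 3 treatments did not overlap in either genotype, and the genotypes overlapped with PM and with OI and PM. The PM difference was 2.91 ± 0.15 in WT (adjusted p = 1.14e-06) and 3.27 ± 0.16 in Acod1-/- cells (adjusted p = 4.71e-07), and OI added 1.52 ± 0.14 (adjusted p = 1.39e-05) and 1.33 ± 0.14 (adjusted p = 3.82e-05).

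Gsta4, the alpha-class enzyme known for conjugating the lipid aldehyde hydroxynonenal, followed the same order at very low counts. Its reads numbered 2 and 0 in the WT vehicle libraries, 12 and 12 with PM, and 99 and 130 with OI and PM, against 1 and 2, 7 and 9, and 36 and 44 in Acod1-/- cells. From these reads the ratio of PM to vehicle was 13.2 in WT (counting interval 3.28 to 115) and 5.63 in Acod1-/- cells (1.61 to 30.1), and that of OI and PM to PM was 10.6 (6.92 to 16.8) and 5.23 (3.03 to 9.59). These intervals are exact at the 95% level and cover counting error only. The fitted PM difference passed in WT (adjusted p = 0.0111) and not in Acod1-/- cells (adjusted p = 0.0601), and without the second WT vehicle library the adjusted p in WT was 0.0708. With OI the fitted differences were 3.40 ± 0.31 (adjusted p = 1.27e-05) and 2.37 ± 0.40 (adjusted p = 0.0011). The only libraries of Gsta4 above the filter of 1.5 CPM were those of WT with OI and PM, at 2.96 and 4.40 CPM, so these differences are given as a description of a gene that the filter kept for being high there.

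The mu-class genes lie in a row on chromosome 3, from Gstm5 at chr3:107895821-107898686 through Gstm7, Gstm6, Gstm3, Gstm2 and Gstm1 to Gstm4 at chr3:108040408-108044894 (GRCm38, GENCODE M21), and did not move as a block. Gstm1, the most abundant cytosolic transferase per kb, had 96.7 and 89.2 CPM in WT cells with vehicle, 238 and 270 with PM, and 595 and 767 with OI and PM. In Acod1-/- cells it had 77.9 and 83.4 CPM, then 232 and 210.7, then 533 in both libraries. Its libraries thus stepped up with each treatment without overlap. PM raised it by 1.45 ± 0.12 in WT (adjusted p = 1.89e-05) and 1.46 ± 0.12 in Acod1-/- cells (adjusted p = 1.45e-05), and OI by a further 1.42 ± 0.12 (adjusted p = 5.25e-06) and 1.27 ± 0.12 (adjusted p = 1.31e-05). Of the 50-base windows of its transcripts, the length of a read here, 18.9% also occur in transcripts of other genes, mainly Gstm2-ps1 and Gstm3.

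Its neighbour Gstm2 rose more with PM and less with OI. WT cells had 2.06 and 1.96 CPM with vehicle, 9.40 and 11.96 with PM, and 15.1 and 18.0 with OI and PM, and Acod1-/- cells had 2.57 and 2.25, 12.5 and 10.7, and 13.2 and 14.5. PM raised it by 2.41 ± 0.17 in WT (adjusted p = 6.69e-06) and 2.26 ± 0.16 in Acod1-/- cells (adjusted p = 7.27e-06). OI raised it by 0.63 ± 0.14 in WT (adjusted p = 0.0048), and its difference of 0.25 ± 0.14 in Acod1-/- cells did not pass (adjusted p = 0.192). The difference between these OI effects was itself not past the threshold (-0.37, 95% interval -0.81 to 0.07, adjusted p = 0.81). Gstm4 rose by 0.49 with PM in WT and by 0.60 and 0.52 with OI in WT and Acod1-/- cells, and each of these calls was lost under some alternative, up to an adjusted p of 0.15, 0.0599 and 0.103. Gstm5 stayed between 2.80 and 6.77 CPM in all libraries, and its treatment differences, from -0.20 to 0.08, did not pass. Gstm3, Gstm6 and Gstm7 had 11, 12 and 42 counts over the 12 libraries, and 28.8% of the windows of Gstm3 also occur in other genes.

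**Figure D2:**
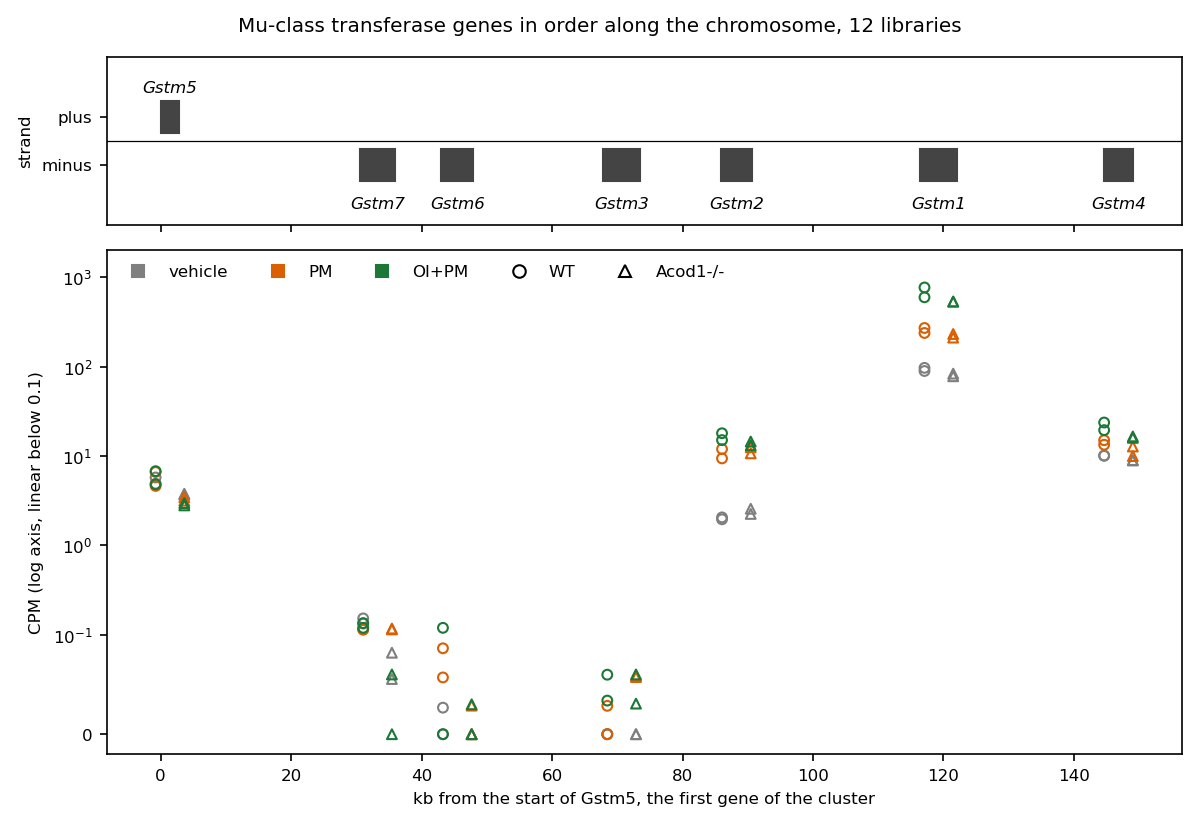
Upper panel, the 7 mu-class genes by distance in kb from the lowest coordinate of Gstm5, on the strand shown. Lower panel, CPM of each gene in the 12 libraries on a log axis (linear below 0.1), with circles for WT and triangles for Acod1-/- cells. Gstm1 and Gstm2 separate by treatment, Gstm5 overlaps, and Gstm3, Gstm6 and Gstm7 stay at or below 0.153 CPM.

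The pi-class gene Gstp1 and the omega-class gene Gsto1, which encodes a thiol transferase and reductase, rose more modestly. Gstp1 had 3.45 and 2.75 CPM in WT cells with vehicle, 5.31 and 7.09 with PM, and 8.71 and 14.1 with OI and PM, against 1.80 and 2.03, 4.91 and 4.29, and 6.94 and 8.10 in Acod1-/- cells. Its PM differences were 1.002 ± 0.25 (adjusted p = 0.0168) and 1.26 ± 0.28 (adjusted p = 0.00865), and its OI differences 0.88 ± 0.22 (adjusted p = 0.0103) and 0.71 ± 0.24 (adjusted p = 0.0419). Each of these 4 calls was lost in some fit that left out 1 library, the highest adjusted p among its alternatives being 0.133, 0.0701, 0.097 and 0.204 in that order, and 33.7% of its 50-base windows also occur in Gstp2, so its counts are uncertain. Gsto1 rose from 75.2 and 75.3 CPM to 110 and 124 with PM and to 184 and 223 with OI and PM in WT cells, and from 65.7 and 60.8 to 106 in both libraries and to 171 and 179 in Acod1-/- cells. All 4 of its differences passed and lay between 0.63 and 0.80.

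Of the tested genes of the theta, kappa and zeta classes, Gstt2 and Gstt3 each passed in 1 treatment comparison. Gstz1, an isomerase of tyrosine breakdown, stayed between 16.6 and 21.3 CPM, and Gstk1, the mitochondrial kappa-class gene, between 4.96 and 9.51 CPM, and no treatment difference of either passed. The exons of Gstz1 overlap those of Gm6566 and Pomt2. Gstt2 rose with OI in WT cells by 0.41 ± 0.14 (adjusted p = 0.044), a call lost in 5 of its 15 alternatives, and its difference of 0.13 ± 0.15 in Acod1-/- cells did not pass (adjusted p = 0.535). Gstt3 fell with PM in Acod1-/- cells by 0.32 ± 0.09 (adjusted p = 0.0305), a call lost in 7 of its 15 alternatives, and its exons overlap those of Gm20441. Counting the tested cytosolic transferases, 7 rose and 0 fell with PM in WT, 5 rose and 1 fell with PM in Acod1-/-, and 8 and 6 rose with OI in WT and Acod1-/- cells. Over all genes tested, 12.6% rose and 12.2% fell with PM in WT, 12% rose and 11.9% fell with PM in Acod1-/-, and 21.3% and 13.9% rose with OI, so the 1 fall among the 12 cytosolic transferases is near the share of all genes. Without Gsta4, 6 and 5 rose with PM and 7 and 5 with OI. Of the untested members of this group, the theta-class gene Gstt1 had 22 reads in both WT vehicle libraries, 12 and 9 with PM, and 6 and 5 with OI and PM, against 12 and 10, 11 and 6, and 1 and 4 in Acod1-/- cells, so its reads were fewest with OI and PM. Gsta1 had 0 reads in all 4 vehicle libraries, 1 to 3 with PM and 3 to 13 with OI and PM, but 90.5% of its 50-base windows also occur in other genes, mainly Gm3776 and Gsta2.

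The 3 microsomal transferases are membrane enzymes related to leukotriene C4 synthase, and they did not move together. Mgst1, which also reduces lipid peroxides, had 135 and 131 CPM in WT cells with vehicle, 219 and 244 with PM, and 360 and 441 with OI and PM. Acod1-/- cells had 120 and 122, then 237 and 228, then 393 and 418 CPM. The 4 differences of Mgst1 were nearly alike, from 0.79 to 0.94, and all passed. Mgst2, which can form leukotriene C4, rose more steeply from a lower level. Its WT libraries had 4.28 and 5.68 CPM with vehicle, 21.3 and 24.9 with PM, and 53.8 and 83.0 with OI and PM, and its Acod1-/- libraries 4.35 and 4.61, 18.2 and 14.7, and 41.2 and 37.9. PM raised it by 2.21 ± 0.22 in WT (adjusted p = 7.99e-05) and 1.88 ± 0.23 in Acod1-/- cells (adjusted p = 0.000251), and OI by 1.56 ± 0.20 (adjusted p = 0.000132) and 1.26 ± 0.20 (adjusted p = 0.000733). Mgst3 did not pass with PM (0.01 ± 0.12 in WT and -0.01 ± 0.12 in Acod1-/- cells) and fell with OI, by 0.43 ± 0.12 in WT (adjusted p = 0.0154) and 0.53 ± 0.12 in Acod1-/- cells (adjusted p = 0.00653). The WT call of Mgst3 was lost without the second PM library, without the first OI and PM library and when the compared groups were fitted alone, with an adjusted p of up to 0.152.

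Of the 3 tested peroxidases, Gpx1 and Gpx3 fell with OI, where 22.6% of all genes tested fell in WT and 20.6% in Acod1-/- cells. Gpx1, the abundant cytosolic and mitochondrial selenoenzyme and the member with the highest level per kb, had 754 and 813 CPM in WT cells with vehicle, 915 and 1144 with PM, and 429 and 576 with OI and PM. In Acod1-/- cells it had 852 and 804, then 1062 and 1108, then 569 and 644. With OI and PM every library was below every other library of its genotype. The PM difference was 0.39 ± 0.14 in both genotypes and did not pass (adjusted p = 0.0644 and 0.0694), and OI lowered Gpx1 by 1.03 ± 0.14 in WT (adjusted p = 0.000219) and 0.84 ± 0.14 in Acod1-/- cells (adjusted p = 0.000989).

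Gpx3, the secreted peroxidase of plasma, fell at each step. WT cells had 12.2 and 12.8 CPM with vehicle, 7.20 and 7.29 with PM, and 3.17 and 3.25 with OI and PM, and Acod1-/- cells 8.61 and 8.22, 5.70 and 5.41, and 2.10 and 2.16. The 2 libraries of each group lay close together, and the 6 groups did not overlap. PM lowered it by 0.79 ± 0.08 in WT (adjusted p = 0.0001) and 0.60 ± 0.09 in Acod1-/- cells (adjusted p = 0.000741), and OI by 1.17 ± 0.10 (adjusted p = 5.21e-06) and 1.38 ± 0.10 (adjusted p = 2.96e-06). Gpx4, which reduces peroxidised phospholipids, rose with PM in Acod1-/- cells (0.55 ± 0.16, adjusted p = 0.0351), and its PM difference of 0.48 ± 0.16 in WT did not pass (adjusted p = 0.057). The Gpx4 call was lost in each of the 4 fits that left out a library of its comparison, and 34.7% of its 50-base windows also occur in Gpx4-ps2. Gpx7 had 231 counts in all.

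Of the genes for synthesis, reduction and glutaredoxins, Gss and Gsr rose at each step and Glrx turned. Over all genes tested, 12.6% rose with PM in WT and 12% in Acod1-/- cells. With OI 21.3% rose and 22.6% fell in WT, and 13.9% rose and 20.6% fell in Acod1-/- cells. Gss, which joins glycine to gamma-glutamylcysteine in the last step of synthesis, had 16.6 and 16.7 CPM in WT cells with vehicle, 48.0 and 53.5 with PM, and 204 and 283 with OI and PM. Acod1-/- cells had 13.4 and 14.3, then 41.7 and 38.5, then 166 and 168. It was the tested member outside the transferases with the largest OI difference, 2.26 ± 0.13 in WT (adjusted p = 5.58e-07) and 2.06 ± 0.13 in Acod1-/- cells (adjusted p = 1.16e-06), after PM differences of 1.61 ± 0.14 (adjusted p = 2.8e-05) and 1.54 ± 0.14 (adjusted p = 3.29e-05). Exons of Gss overlap those of Acss2, Gssos1 and Gssos2, and the handling of strand is not given in the sources used here, so reads of these genes may not be told apart.

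Gsr, the reductase that regenerates glutathione with NADPH, had 169 and 158 CPM in WT cells with vehicle, 321 and 314 with PM, and 434 and 487 with OI and PM, against 137 and 140, 280 and 286, and 439 and 443 in Acod1-/- cells. On the log2 scale PM raised it by 0.96 ± 0.07 (adjusted p = 6.15e-06) and 1.03 ± 0.07 (adjusted p = 3.11e-06), and OI by 0.54 ± 0.07 (adjusted p = 0.0001) and 0.64 ± 0.07 (adjusted p = 3.11e-05). Glrx, a glutaredoxin that removes glutathione from protein thiols, had 81.4 and 82.4 CPM in WT cells with vehicle, 107 and 119 with PM, and 47.1 and 56.9 with OI and PM, and 93.1 and 95.02, 120 and 112, and 53.4 and 51.8 in Acod1-/- cells. It was highest with PM and lowest with OI and PM, without overlap in either genotype. PM raised it by 0.46 ± 0.09 in WT (adjusted p = 0.00582) and 0.31 ± 0.09 in Acod1-/- cells (adjusted p = 0.0374), and OI lowered it by 1.12 ± 0.09 (adjusted p = 6.92e-06) and 1.14 ± 0.09 (adjusted p = 6.26e-06). Both PM calls of Glrx were lost in fits without a single library, up to an adjusted p of 0.0525 in WT and 0.217 in Acod1-/- cells. Glrx2, Glrx3 and Glrx5, of which the latter pair serve iron-sulfur proteins, had differences from 0.04 to 0.32 and did not pass in any treatment comparison. Of the 50-base windows of Glrx3, 15.1% also occur in other genes, mainly Gm12669.

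Of the 6 tested turnover genes, 1 rose with PM in each genotype, where 12.6% and 12% of all genes rose. With OI 1 rose and 1 fell in WT cells (21.3% and 22.6% of all genes) and 3 rose in Acod1-/- cells (13.9%). Ggt5, which passed in all 4 comparisons, encodes a gamma-glutamyl transferase of the cell surface that acts on glutathione and on leukotriene C4. Its WT libraries had 0.721 and 0.738 CPM with vehicle, 2.49 and 2.16 with PM, and 4.79 and 5.38 with OI and PM, and its Acod1-/- libraries 0.711 and 0.639, 1.38 and 1.70, and 3.58 and 3.20. These low levels stepped up without overlap, and Ggt5 was tested only through the treated groups in which it is high. PM raised it by 1.67 ± 0.18 in WT (adjusted p = 0.000127) and 1.19 ± 0.20 in Acod1-/- cells (adjusted p = 0.00185), and OI by 1.13 ± 0.14 (adjusted p = 0.000114) and 1.14 ± 0.15 (adjusted p = 0.000247). Its chromosomal neighbour Ggt1, the main enzyme of this kind in many tissues, was not tested, with 1 read over the 4 vehicle libraries, 7 to 14 per library with PM and 4 to 13 with OI and PM.

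Anpep, a surface aminopeptidase that can cleave cysteinylglycine and the highest turnover gene per kb, had 875 and 838 CPM in WT cells with vehicle, 930 and 824 with PM, and 722 and 561 with OI and PM, and 772 and 813, 820 and 827, and 713 and 707 in Acod1-/- cells. It fell with OI in WT cells by 0.45 ± 0.10 (adjusted p = 0.00615), and the difference of -0.21 ± 0.10 in Acod1-/- cells did not pass (adjusted p = 0.147). The WT call was lost without the first PM library and in the fit of the compared groups alone, with an adjusted p of up to 0.118. Chac2, which degrades glutathione in the cytosol, and Oplah, the oxoprolinase, rose with OI in Acod1-/- cells, by 0.56 ± 0.16 (adjusted p = 0.0238) and 0.62 ± 0.16 (adjusted p = 0.0135), while the WT differences of 0.39 ± 0.16 and 0.27 ± 0.17 did not pass. Each of these calls was lost in some fit that left out 1 library, and exons of Oplah overlap those of Exosc4 and Smpd5. Lap3, a leucine aminopeptidase, lay between 40.0 and 49.4 CPM and Ggct, a cyclotransferase, between 3.64 and 5.51 CPM, and neither passed.

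Esd, the esterase that hydrolyses S-formylglutathione, rose from 583 and 585 CPM in WT cells to 1077 and 1294 with PM and to 1804 and 2620 with OI and PM, and from 482 and 514 to 1055 and 889 and to 1706 and 1708 in Acod1-/- cells. Its differences were 1.02 ± 0.16 (adjusted p = 0.00122) and 0.96 ± 0.16 (adjusted p = 0.00151) with PM, and 0.90 ± 0.16 (adjusted p = 0.00113) and 0.81 ± 0.16 (adjusted p = 0.00241) with OI. The glyoxalase Hagh rose with PM by 0.47 ± 0.11 in WT (adjusted p = 0.0155) and 0.50 ± 0.12 in Acod1-/- cells (adjusted p = 0.0117), calls that some fits without 1 library lost, and did not pass with OI. Glo1, the first glyoxalase of the pathway, stayed between 22.5 and 31.6 CPM and did not pass, and its exons overlap those of 1700097N02Rik. Ggta1, the member by letters only, did not pass with PM (0.02 and 0.04) and rose with OI from 247 and 220 CPM to 403 and 377 in WT and from 195.05 and 199 to 302 and 296 in Acod1-/- cells (0.74 ± 0.07, adjusted p = 1.34e-05, and 0.60 ± 0.07, adjusted p = 6.56e-05).

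**Figure D3:**
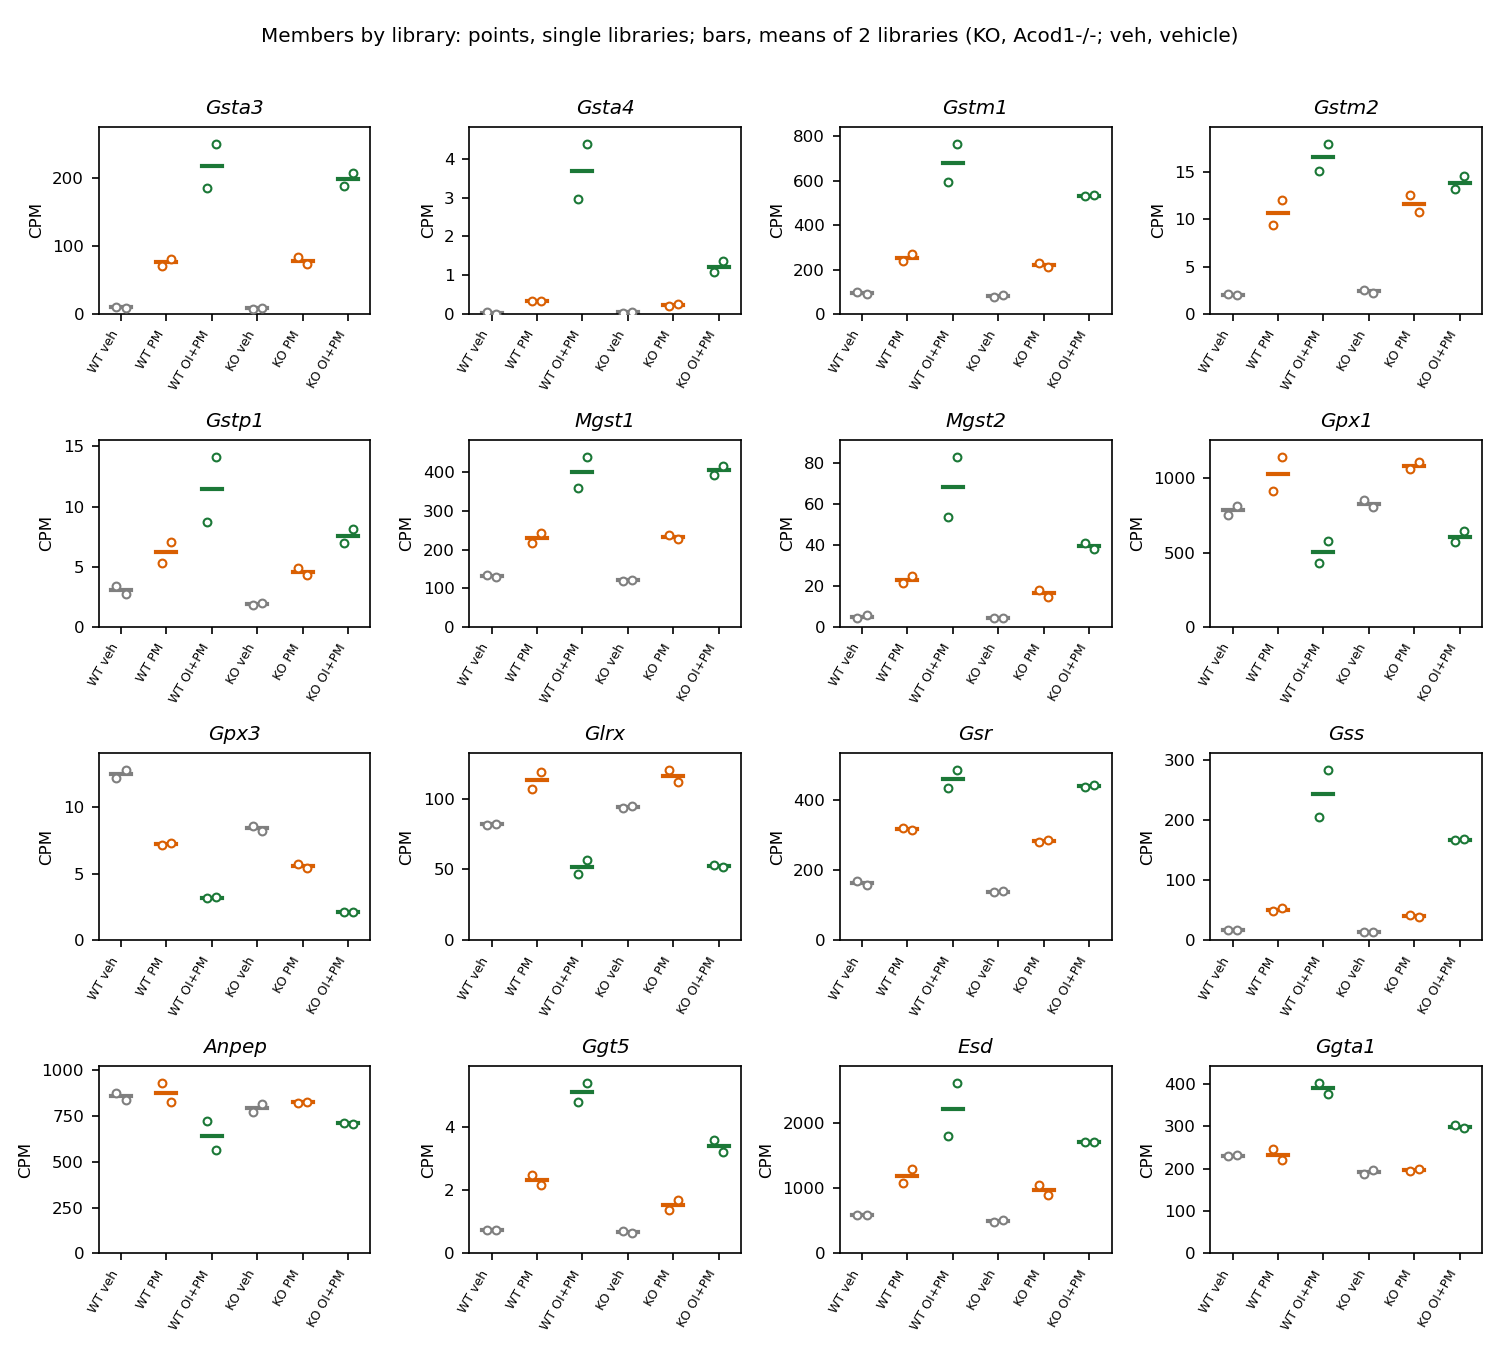
CPM (y axis, from 0) of 16 members in the 6 groups (x axis, KO for Acod1-/- and veh for vehicle), with a point for each library and a bar at the mean of 2. Gsta3, Gstm1, Gss and Esd step up with PM and again with OI and PM, Gpx3 steps down, and Gpx1 and Glrx are lowest with OI and PM.

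The members were also compared between Acod1-/- and WT cells given the same treatment. With vehicle, 6 of the 34 tested members had an unadjusted p under 0.05, as had 1141 of all 11228 genes. Only Gpx3 passed, lower in Acod1-/- cells by 0.57 ± 0.08 (adjusted p = 0.00618), where 0.891% of all genes were higher and 0.935% lower. Without any 1 of the 4 vehicle libraries this call was lost. DESeq2 called 3 members, the fit with a gene length offset 3 and the fit of these 2 groups alone 15. How many of all genes these fits called is not given here, so the counts show only how the calls depend on the fit. With PM, 0 members passed by edgeR, where 1.1% of all genes were higher and 1.3% lower, and DESeq2 called 1 member. An unadjusted p under 0.05 was found for 9 members and for 1577 of all 11228 genes. The PM differences nearest the threshold were those of Gstt3 (-0.40 ± 0.09, adjusted p = 0.0559) and Gpx3 (-0.38 ± 0.09, adjusted p = 0.0573).

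With OI and PM, 7 members were lower and none higher in Acod1-/- cells, where 4.45% of all genes were lower and 2.51% higher. They were Gsta4 (-1.59 ± 0.25, adjusted p = 0.00773), Gstm5 (-0.997 ± 0.21, adjusted p = 0.0238), Mgst2 (-0.79 ± 0.19, adjusted p = 0.0397), Gpx3 (-0.59 ± 0.11, adjusted p = 0.0161), Ggt5 (-0.58 ± 0.13, adjusted p = 0.032), Gss (-0.54 ± 0.13, adjusted p = 0.0356) and Ggta1 (-0.38 ± 0.07, adjusted p = 0.013). Gstm5, whose exons overlap those of 4933431E20Rik, had 4.82 and 6.77 CPM in WT and 2.98 and 2.80 CPM in Acod1-/- cells. Its Acod1-/- libraries were also below the WT ones with vehicle (3.72 and 3.78 against 4.89 and 5.75) and with PM (3.47 and 3.16 against 4.63 and 6.63), where it did not pass. The same order held for Gpx3, Ggt5, Gss and Ggta1 under each treatment, whereas Gsta4 and Mgst2 overlapped between the genotypes with vehicle. Gsta4 was the member at least 2-fold lower, as were 0.588% of all genes, but it was tested only because it is high in the WT libraries compared here. Of the 32 members above the filter in all 12 libraries, 5 passed and 0 were 2-fold lower. The median of the tested members was -0.25 beside -0.03 over all genes. An unadjusted p under 0.05 was found for 15 of the 34 members and for 3281 of all 11228 genes. A difference above 0 was found for 6 of the 34 members and for 5082 of all genes. The members also lay mostly below 0 under the other treatments. With vehicle 8 members and 5980 of all genes were above 0, with medians of -0.10 and 0.01. With PM 8 members and 5618 of all genes were above 0, with medians of -0.12 and 0.00. Past the adjusted p of 0.05 with OI and PM were 7 members. This count moved with single libraries: it was 23 without the first WT library with OI and PM and 3 without the second, 0 without either Acod1-/- library with OI and PM, and 0 when the 2 groups were fitted alone. The first of those WT libraries was the lower of the pair for each of these members but Ggta1. A gene length offset gave 8 members, the replicate block 7, and both together 8. How many of all genes passed in any of these fits is not given here. The counts therefore show only how the calls depend on the fit, and not that the members differ from other genes.

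Whether the effect of PM or of OI differed between the genotypes was tested as an interaction. By edgeR 0 members and 0% of all genes passed for either effect, and DESeq2 called 0 members. An unadjusted p under 0.05 was found for 1 member for PM and 0 for OI, and for 273 and 717 of all 11228 genes. The estimates were wide for low genes, such as -1.16 for the PM effect on Gsta4 (95% interval -4.33 to 2.02). For the abundant members the intervals were narrower, for example -0.13 to 0.28 for the PM effect on Gsr and -0.51 to 0.20 for the OI effect on Gstm1. The calls for the OI effect changed without the first WT library with OI and PM, and the share of all genes called in that fit is not given here.

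**Figure D4:**
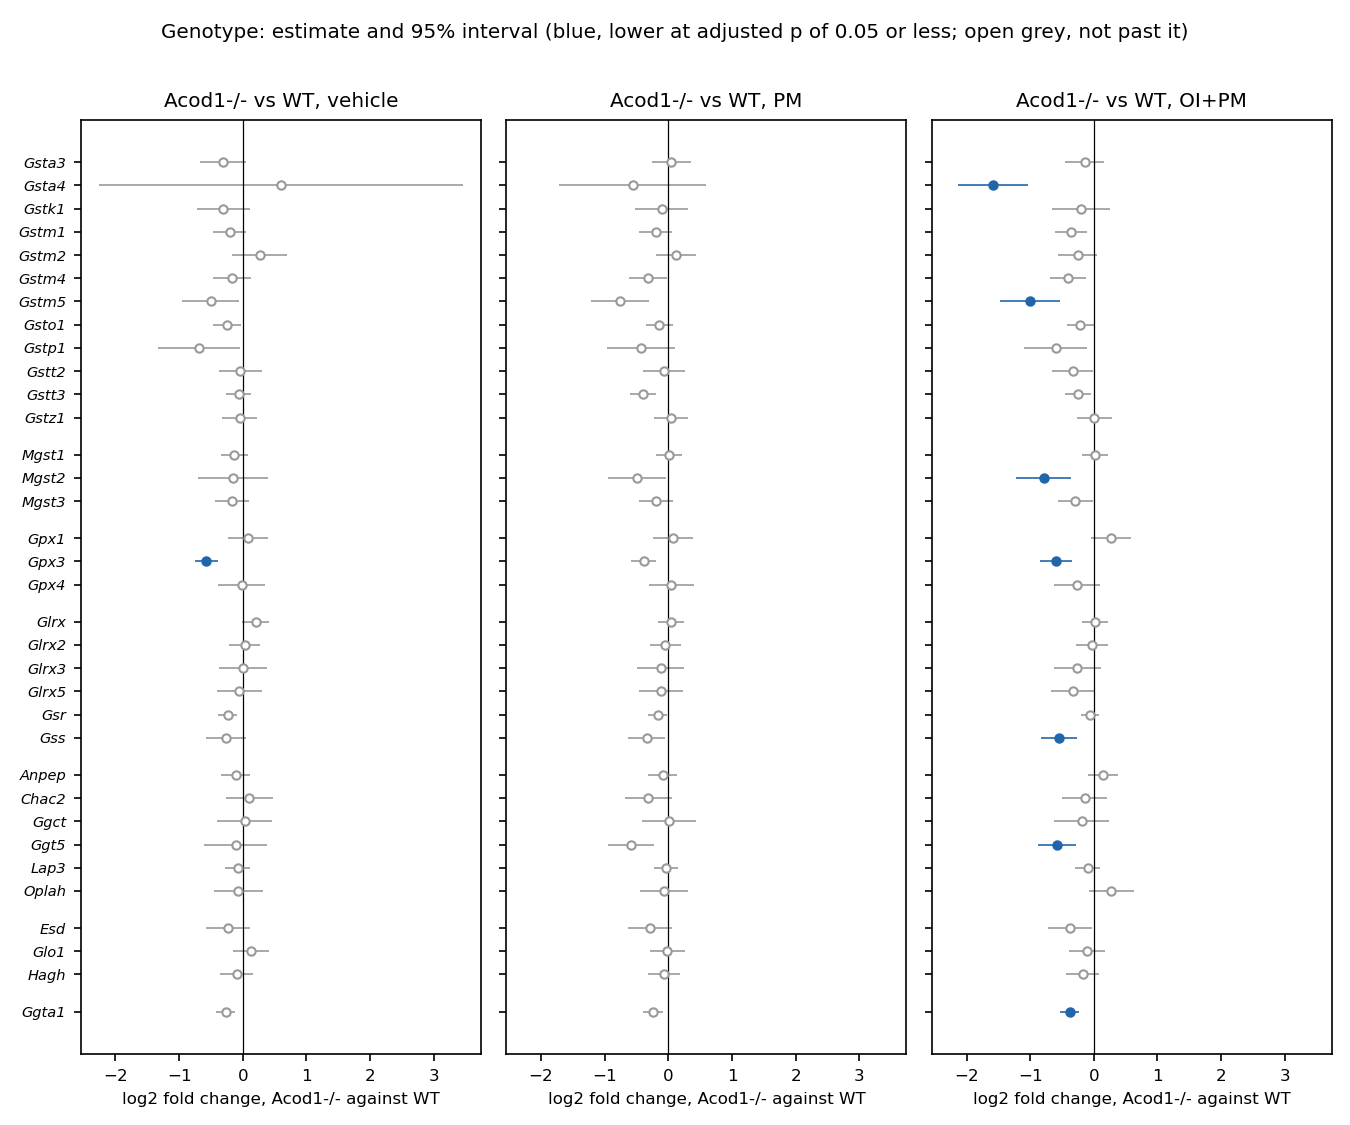
Log2 fold change of Acod1-/- against WT (x axis) for the 34 tested members (y axis) under each treatment, with 95% intervals. Filled points mark the members past the threshold, which are Gpx3 with vehicle, none with PM and 7 with OI and PM, all to the left of 0.

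**Figure D5:**
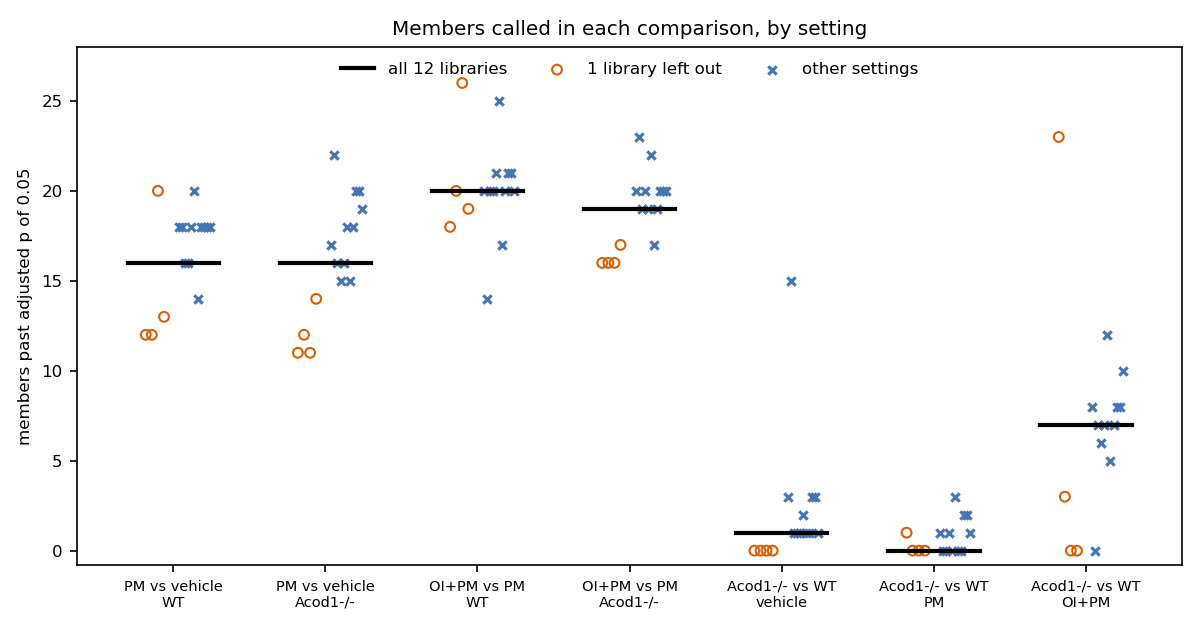
Number of members past the adjusted p of 0.05 (y axis) in each comparison (x axis), with a bar for the fit of all 12 libraries, circles for fits without 1 library and crosses for other settings. The treatment counts stay at 11 or more, and the count for Acod1-/- against WT with OI and PM ranges from 0 to 23.

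A list of 26 other genes of the pathway was read beside the members, and 23 of them were tested. With PM 12 rose and 2 fell in both WT and Acod1-/- cells, with medians of 0.32 and 0.33, and with OI 10 rose and 3 fell in WT and 8 rose and 3 fell in Acod1-/- cells, with medians of 0.20 and 0.01. Over all genes tested, 12.6% rose and 12.2% fell with PM in WT, 12% and 11.9% in Acod1-/-, 21.3% and 22.6% with OI in WT, and 13.9% and 20.6% in Acod1-/- cells, so the falls in this list were no more frequent than among all genes. Slc7a11, the cystine importer, rose by 3.33 and 3.26 with PM and by 2.30 and 2.33 with OI. The subunits of glutamate-cysteine ligase, which makes the first bond of glutathione, also rose: Gclm by 1.66 and 1.69 with PM and 1.68 and 1.78 with OI, and the catalytic Gclc by 0.91 and 0.86 with PM and by 2.51 and 2.58 with OI. Abcc1, an exporter of glutathione conjugates, rose by 0.88 and 0.81 with PM and by 1.30 and 1.43 with OI. Nfe2l2, the gene of NRF2, rose with PM by 0.49 and 0.51 and fell with OI by 0.22 and 0.27. Hpgds, the sigma-class transferase that makes prostaglandin D, fell with PM by 0.62 and 0.68. Between the genotypes 0 of these genes passed with vehicle or PM by edgeR. An unadjusted p under 0.05 was found for 2 and 1 of them, and for 1141 and 1577 of all 11228 genes. With OI and PM 1, Slc3a2, was lower in Acod1-/- cells (-0.37, adjusted p = 0.0296), where 4.45% of all genes were lower.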

How the data were processed

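RNA was measured in 12 BMDM libraries. Reads were 50 bp long and single-end, and according to the study's methods the authors aligned them with STAR (GRCm38), assigned them to genes with featureCounts and deposited the raw counts. The submitters' processing notes give STAR 2.5.3a, FastQC 0.11.5 and Picard 2.9.0. The annotation release and the handling of strand and of reads with several matches are not given in the sources used here. An aligner's and counter's choices bear on genes with near-identical copies and on overlapping genes.

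Here the counts were fitted in R 4.3.3 with edgeR 4.0.16 (glmQLFit and glmQLFTest, TMM scaling, 6 group means over all 12 libraries, genes with CPM above 1.5 in at least 2 libraries), with Benjamini-Hochberg adjustment over 11228 genes and an added limit of 2-fold, after the limits in the study's methods. The quasi-likelihood fit was tested on simulated data, but no error rate from that test is given here. DESeq2 1.42.0, other scalings and filters, an offset for gene length, the replicate number as a block, and fits without each of the libraries were alternatives. Of 48795 identifiers, 48349 received a symbol from GENCODE M21, which also gave positions and exonic lengths. Libraries were grouped by their labels. The members and lists were chosen with earlier results of these data known. Members named with full values are those past the threshold and 2-fold in any comparison, the highest per kb of each role group and those at the limit of counts. In place of protein identity, which was not analysed here, the share of 50-base windows found in other genes' transcripts was computed, a choice made after the data were seen. Counting intervals are exact at the 95% level and cover counting error only.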

Additional observations from a re-analysis of the deposited data

How the results depend on the processing

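The calls for treatment depended less on the settings than those for genotype. Over all fits that left out 1 library, the number of members past the threshold was 12 to 20 for PM in WT (16 with all libraries), 11 to 14 for PM in Acod1-/- (16), 18 to 26 for OI in WT (20) and 16 to 17 for OI in Acod1-/- cells (19), and over the other settings 14 to 20, 15 to 22, 14 to 25 and 17 to 23. No result changed its direction under any setting that was run. A fit that left a group with 1 library assumed that it varied like the other groups. For none of the alternative fits in this section is the share of all genes called given here. Their counts show only how the calls of the members depend on the setting.

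For Acod1-/- against WT with vehicle, where 1 member passed, 0 passed without any 1 library, 3 by DESeq2, 2 with no filter, 3 with the gene length offset, 3 with that offset and the replicate block, and 15 when the compared groups were fitted alone. With PM, where 0 passed, 1 passed by DESeq2, 1 with total count scaling, 3 with no filter, 2 with the gene length offset, 2 with the offset and the block, and 0 to 1 without 1 library (0 to 1 at 2-fold as well), the 1 coming without the first WT library with PM. With OI and PM, where 7 passed, 12 passed with no filter, 0 in the compared groups alone and 0 to 23 without 1 library, and at 2-fold, where 1 passed, 0 in the compared groups alone, 0 with the CPM filter in all 12 libraries and 0 to 3 without 1 library. The interaction for OI gave 0 to 3 without 1 library, the 3 coming without the first WT library with OI and PM. Fewer or more genes tested follow from the filters, and the cause of the other changes was not tested.

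The labels do not say that a replicate number marks a shared animal or batch, and with 2 pairs in each comparison the numbers were not taken as pairs. Deviations of same-numbered libraries correlated at 0.27 to 0.78 among the 3 WT groups, at -0.11 to -0.07 among the Acod1-/- groups, and between the genotypes at -0.05 with vehicle, -0.45 with PM and 0.30 with OI and PM. With the replicate block, 18, 18, 20 and 19 members passed in the treatment comparisons, 1, 0 and 7 in those of genotype, and 0 in both interactions. With the numbers of the Acod1-/- PM libraries exchanged, an alternative chosen after seeing the data, 18, 19, 20 and 20 passed for treatment and 1, 1 and 10 for genotype. Total count scaling moved the median of all genes by -0.13 for OI in WT cells. A limit of 5 counts kept 44 members and one of 20 kept 42. Depth limited the low members: Gsta4 had 0 to 2 reads in each vehicle library.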
